A study of Mus musculus with 8 samples.

Results

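Interferon response genes are the genes that cells switch on when interferons bind their receptors. A set of 40 such genes was chosen by name and followed in double-positive (CD4+ CD8+) thymocytes, an immature stage of T cells. Of the 40 genes, 38 had a probe set assigned to that gene alone on the array, out of 18193 genes with such a probe set, and 30 were bright enough to test among 9941 tested genes. Isg15 and Ifi44 had no such probe set, so their signals were not tested.

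Each of 8 Affymetrix mouse arrays held labelled RNA from 1 mouse of 4 to 5 weeks of age. The deficient group holds 4 mice titled Mutant, with the genotype field c-Myb deficient and the source name Mybf/w Cd4-Cre Tcra-/-. The sufficient group holds 4 mice titled Control, with the genotype field c-Myb sufficient and the source name Mybf/f Cd4-Cre Tcra-/-. The source names thus give the floxed homozygous genotype to the group that the other fields call sufficient, and the groups are named here by the titles and the genotype field. Tcra-/-, shared by the 8 mice, removes the alpha chain of the T-cell receptor, without which development stops at the double-positive stage. All carried Cd4-Cre, a recombinase driven from Cd4 regulatory sequence that starts to act around that stage. Cells were enriched magnetically through an anti-CD4 antibody, which would also retain any other CD4+ cell.

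Type I interferons signal through the receptor chains IFNAR1 and IFNAR2 and the kinases JAK1 and TYK2 to factors that include STAT2 and IRF9 and act at the interferon-stimulated response element (ISRE) in promoters. Interferon gamma signals through JAK1 and JAK2 to the gamma-activated site (GAS). The induced genes encode sensors of viral nucleic acid, enzymes that cut or trap viral RNA, membrane proteins that hold back virus particles, and GTPases that act on intracellular pathogens. In the thymus, low-level interferon signalling is known in the medulla, and maturing single-positive thymocytes carry part of this response.

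The arrays had been scaled to a common level by the authors, with a 2% trimmed mean of 250 on each, and array medians lay between 30.0 and 37.9 signal units. Signals at or under 33.8, the median of the whole table, are called dim. The targeted gene was bright in both groups: 1421317_x_at, the brightest of 3 Myb probe sets, read 10511.9 to 11754 on deficient arrays and 8326.5 to 10387.9 on sufficient arrays (two-sided exact permutation p = 0.0286, the smallest that 70 labellings can give). The probe set 1422734_a_at was also higher in deficient mice with no overlap (exact permutation p = 0.0286), and 1450194_a_at overlapped between the groups (exact permutation p = 0.714). Whether the probes match floxed sequence is not known here, so these levels do not check the genotype. The double-positive stage markers Rag1, Cd4 and Cd8a were far above the dim limit on all 8 arrays, the lowest signal being 3227.6 for Cd4. Xist, transcribed in female mice, read 4128.7 to 5735.5 in all 4 deficient mice and 4358.5 in sufficient replicate 1, against 23.4 to 36.7 in sufficient replicates 2, 3 and 4, so Xist class and group largely coincide. Deficient replicate 4 had an 18S rRNA control signal of 7142.7, against 676.1 to 1459.4 on the other 7 arrays.

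Promoter windows from RefSeq (build GRCm38.p6, from 250 bases before to 50 bases after the start of transcription) were found for 29 of the 40 genes. The ISRE core was searched as GAAA, any 2 bases and GAAA again, and the GAS as TTCNNNGAA, each on both strands. At least 1 ISRE core stood in the windows of 15 of the 29 genes (51.72%), against 3.99% of all 27025 genes in the table, and at least 1 GAS in 9 of 29 (31.03%), against 9.55%. The 6 windows below belong to genes whose signal passed the test described further on, and were picked among windows that hold a motif. Not shown are the windows of Ifi47 and Xaf1, which also passed and hold neither motif. Ifi35, which passed too, holds a GAS and no ISRE core and is not shown either. Oas1a, Rsad2, Ifit3 and Gbp2 were higher in deficient mice and hold an ISRE core, Irf1 was higher and holds a GAS and no ISRE core, and Stat2 was lower and holds an ISRE core. Capitals mark each match of either motif, and each window is written along its gene's own strand.
Oas1a, chr5:120907476-120907775, minus strand: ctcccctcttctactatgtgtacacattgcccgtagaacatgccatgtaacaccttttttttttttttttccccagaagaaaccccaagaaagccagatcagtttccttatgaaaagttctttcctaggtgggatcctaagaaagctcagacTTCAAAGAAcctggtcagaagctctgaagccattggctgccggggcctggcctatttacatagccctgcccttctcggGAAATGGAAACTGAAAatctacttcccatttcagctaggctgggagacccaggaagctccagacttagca
Rsad2, chr12:26456403-26456702, minus strand: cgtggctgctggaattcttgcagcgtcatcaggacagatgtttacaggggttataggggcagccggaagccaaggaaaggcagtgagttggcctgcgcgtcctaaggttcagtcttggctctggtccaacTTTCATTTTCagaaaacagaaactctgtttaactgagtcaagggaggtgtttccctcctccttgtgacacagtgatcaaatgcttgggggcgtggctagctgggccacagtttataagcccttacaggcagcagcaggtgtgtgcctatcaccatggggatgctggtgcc
Ifit3, chr19:34583279-34583578, plus strand: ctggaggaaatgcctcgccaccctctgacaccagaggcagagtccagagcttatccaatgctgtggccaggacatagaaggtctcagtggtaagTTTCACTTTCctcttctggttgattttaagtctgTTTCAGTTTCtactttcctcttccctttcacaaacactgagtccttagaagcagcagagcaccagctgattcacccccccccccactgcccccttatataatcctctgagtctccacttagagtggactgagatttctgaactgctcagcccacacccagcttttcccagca
Gbp2, chr3:142620413-142620712, plus strand: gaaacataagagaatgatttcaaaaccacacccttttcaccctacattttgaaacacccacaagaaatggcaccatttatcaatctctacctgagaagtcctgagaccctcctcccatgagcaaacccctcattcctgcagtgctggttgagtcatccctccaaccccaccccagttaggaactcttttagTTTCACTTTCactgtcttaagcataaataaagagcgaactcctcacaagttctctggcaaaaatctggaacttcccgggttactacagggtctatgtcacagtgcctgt
Irf1, chr11:53769764-53770063, plus strand: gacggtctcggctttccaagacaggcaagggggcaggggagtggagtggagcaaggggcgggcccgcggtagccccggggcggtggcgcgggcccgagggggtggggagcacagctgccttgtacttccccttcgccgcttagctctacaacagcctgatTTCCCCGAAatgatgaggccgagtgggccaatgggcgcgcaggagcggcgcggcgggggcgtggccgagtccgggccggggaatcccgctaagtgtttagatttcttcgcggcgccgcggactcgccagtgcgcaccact
Stat2, chr10:128270248-128270547, plus strand: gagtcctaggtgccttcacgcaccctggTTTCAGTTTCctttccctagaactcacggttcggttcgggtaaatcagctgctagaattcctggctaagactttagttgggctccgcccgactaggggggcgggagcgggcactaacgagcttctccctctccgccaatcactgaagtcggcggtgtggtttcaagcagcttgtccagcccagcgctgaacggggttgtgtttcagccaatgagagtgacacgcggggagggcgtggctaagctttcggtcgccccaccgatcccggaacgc
The ISRE cores began 20 and 14 bases before the start in Oas1a, where they overlap each other, 120 before it in Rsad2, 156 and 122 before it in Ifit3, 59 before it in Gbp2 and 222 before it in Stat2. The GAS of Irf1 began 90 bases before the start, and Oas1a also held a GAS that began 98 bases before it. A match is a description of letters, not of a bound site. An ISRE core was present in 4 of 8 called-higher genes with a window and in 7 of 14 tested genes with a window that were not called, the same share. Usp18, Rtp4, Zbp1, Parp9 and Ifi27, also called higher, had no window, so this share does not cover them.

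The comparison of deficient with sufficient mice asks how the c-Myb label goes with the level of each gene. Of the 30 tested interferon response genes, 13 rose, 1 fell and 16 did not pass the test (limma with Benjamini-Hochberg adjustment over 9941 genes, threshold 0.05), and 28 of 30 differences were positive. The background over all tested genes was 5.89% called higher, 4.08% called lower and 9.98% called in either direction, and 53.4% of all tested genes had a positive difference. The median log2 difference of the 30 genes was 0.58, beside 0.02 over all tested genes. Groups of arrays did not overlap, with deficient mice higher, for 11 of the 30, where the background was 9.88%, and with deficient mice lower for 1, where it was 7.11%. A gene that is bright in only 1 group can enter the test through that group, so the count was also taken over all 38 genes without a filter on dim signals. There 13 of 38 were called higher, beside 2.34% of 18193 genes, and 0 lower, beside 1.75%, with 28 of the 38 at an unadjusted p under 0.05 in limma, beside 16.4% of all genes. Groups did not overlap, with deficient mice higher, for 14 of 38, beside 6.19% of all genes, and with deficient mice lower for Stat2, beside 4.64%, and 36 of 38 differences were positive, beside 51.6% of all genes.

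The count of genes called higher depended on single mice. It was 7, 7 and 8 without deficient replicates 1, 2 and 3, and 21 without deficient replicate 4. It was 8, 15, 7 and 8 without sufficient replicates 1, 2, 3 and 4. The share of all tested genes called higher in the same fits ran from 2.9% to 7.1%. With the Xist class (high or low) as a covariate, a fit in which sufficient replicate 1 alone stands for the sufficient group beside the high-Xist deficient mice, 0 of the 30 genes and 26 of all 9941 genes were called by limma, with 11 of the 30 at an unadjusted p under 0.05, beside 10.3% of all tested genes, while 26 of the 30 differences stayed positive with a median of 0.67. In these bulk samples a change in the share of cells that express a gene and a change in RNA per cell cannot be told apart.

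**Figure D1:**
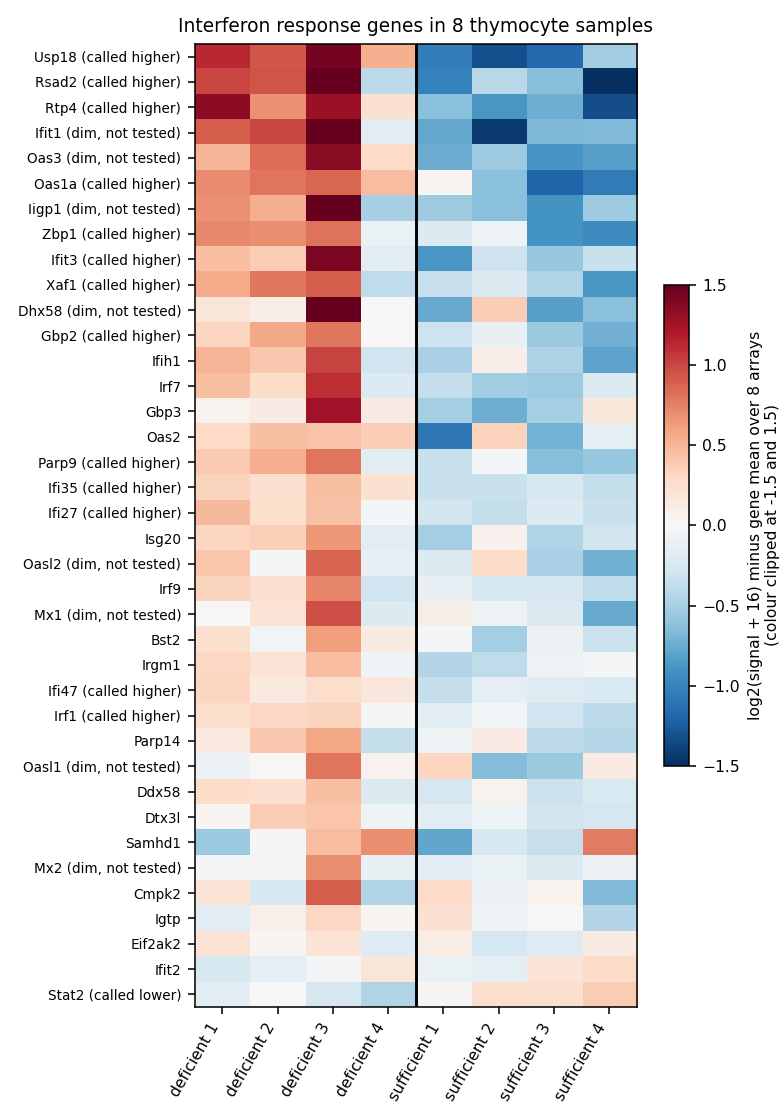
Log2(signal + 16) of the 38 interferon response genes (rows, ordered by difference) minus each gene's mean over the 8 arrays (columns, 4 deficient mice left of 4 sufficient mice), with colours clipped at 1.5 in either direction. The columns of deficient replicates 1, 2 and 3 are mostly red, and that of replicate 3 is the strongest. The column of deficient replicate 4 is not mostly red, with a median over the 38 genes of -0.08.

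Many of the interferon genes had the same highest and the same lowest mouse within the deficient group. For each array, the median over the 30 tested genes of the deviation from the gene's own mean over 8 arrays was 0.32, 0.29, 0.64 and -0.06 (log2) in deficient replicates 1 to 4, against -0.32, -0.17, -0.37 and -0.34 in sufficient replicates 1 to 4. The same median over all tested genes stayed between -0.011 and 0.032. All 4 deficient mice thus lay above the 4 sufficient mice, with replicate 3 far above and replicate 4 nearest to the sufficient range. Deficient replicate 3 was the highest of the 4 deficient mice for 22 of the 30 genes, where this held for 25.3% of all tested genes, and deficient replicate 4 was the lowest of them for 23 of 30, beside 30.6% of all tested genes. Replicate 3 exceeded replicate 4 for 28 of the 30 genes, by a median log2 of 0.73, beside 47.1% of all tested genes and a median of -0.02. Deficient replicate 3 was the highest of all 8 arrays for 22 of the 30 genes, beside 16.5% of all tested genes. Within the sufficient group, replicates 1 to 4 were highest for 6, 14, 2 and 8 of the 30 genes. They were lowest for 7, 6, 5 and 12. Over all tested genes these shares were 20.1%, 30.8%, 22.1% and 26.9% highest, and 21.7%, 30.8%, 18.6% and 28.8% lowest. The SD of log2 signal among deficient mice had a median of 0.34 over the 30 genes, against 0.26 among sufficient mice, where both medians over all tested genes were 0.17.

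Among deficient mice, the summed markers of mature single-positive thymocytes were also highest in replicate 3 and lowest in replicate 4. Their summed signal over 7 markers was 4198.3, 3358.2, 4781.0 and 2682.7 in deficient replicates 1 to 4, against 1323.0, 2685.0, 1267.4 and 1671.5 in sufficient replicates 1 to 4. Of the 6 tested markers 3 rose, beside 5.89% of all tested genes: Ccr7, a chemokine receptor that guides cells to the medulla, by 3.65 (log2), the integrin chain gene Itgb7 by 2.53 and the transcription factor gene Klf2 by 0.95. Slfn2, also in that list and itself induced by interferon, read 1912.9, 1046.5, 1642.5 and 1005.8 in deficient mice, against 695.8, 1710.9, 768.8 and 1079.5 in sufficient mice. Without Slfn2, a sum added after the data were seen, the other 6 markers gave 2285.4, 2311.7, 3138.5 and 1676.9 in deficient mice, against 627.2, 974.1, 498.6 and 592.0 in sufficient mice, with no overlap. Deficient replicate 3 stayed highest and replicate 4 lowest of the deficient mice, while replicates 1 and 2 changed places. Most of this sum in deficient mice came from Ccr7 (731.7 to 933.7) and Itgb7 (414.9 to 1086), both already called. Il7r, Ms4a4b and Slfn2 overlapped between the groups and did not pass (adjusted p = 0.447, 0.145 and 0.39). S1pr1 was dim on most arrays and not tested. The part of these markers, of the 18S rRNA signal and of sex in the interferon result was not tested.

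**Figure D2:**
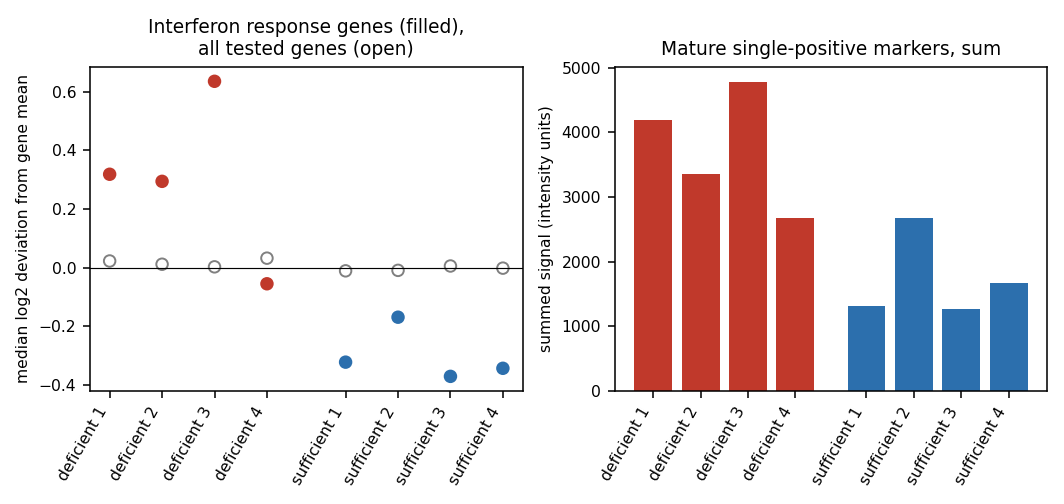
Left, median log2 deviation from the gene mean over 30 tested interferon response genes (filled) and over all tested genes (open) for each array; right, summed signal of 7 mature single-positive markers, Slfn2 included, for each array. Deficient mice are red and stand left of the sufficient mice in blue, and deficient replicate 3 has the highest value in both panels.

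In the ISG15 system 1 of 2 genes was tested and rose: Usp18, a protease that removes ISG15 from proteins and restrains signalling at the type I receptor. Usp18 (probe set 1418191_at) read 525.2, 456.2, 653.7 and 342.2 in deficient mice, against 104.1, 82.6, 94.2 and 155.7 in sufficient mice. Every deficient mouse was above every sufficient mouse, with replicate 3 highest. The log2 difference was 2.02 ± 0.21 (SE, adjusted p = 0.000307), and the call held without each of the 8 arrays in turn. Fits without 1 array do not separate group from Xist class, here or for the other called genes. With the Xist class as a covariate the difference was 2.05, and Usp18, like the other called genes, did not pass. Isg15, the gene of the modifier it removes, has no probe set of its own here.

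Of 4 transcription factors of the pathway 1 rose, 1 fell and 2 did not pass, and both calls were lost in most fits without an array. Stat2, part of the type I interferon complex, read 230.7, 258.9, 217.0 and 185.8 in deficient mice, against 263.1, 313.0, 309.4 and 343.5 in sufficient mice. All deficient mice were lower, and Stat2 fell by 0.44 ± 0.12 on the log2 scale (SE, adjusted p = 0.0484). This was the 1 fall among the 30, and it did not pass without deficient replicates 1, 2, 3 or 4 or sufficient replicates 2, 3 or 4 (adjusted p up to 0.123), nor without the dim filter (0.0922), and its other probe set differed by -0.26 without passing. Irf1, a factor induced mainly through the GAS, read 730.1, 755.5, 767.6 and 597.4 in deficient mice, against 543.4, 588.6, 491.4 and 456.3 in sufficient mice. Irf1 rose by 0.44 ± 0.11 (adjusted p = 0.0322) with no overlap, and passed in the 2 fits without deficient replicate 4 and without sufficient replicate 2 only (adjusted p up to 0.101 in the other 6). Irf7, the factor that amplifies type I interferon production, read 130.3, 113.8, 215.0 and 76.9 in deficient mice, against 67.3, 58.8, 57.6 and 76.3 in sufficient mice. Its groups did not overlap by a narrow margin, and the difference of 0.82 ± 0.24 did not pass (adjusted p = 0.0549), though it did with quantile normalization (0.044), with array weights and without deficient replicate 4. Irf9, the DNA-binding partner of STAT2, averaged 328 ± 97.7 in deficient mice and 219 ± 17.6 in sufficient mice (SD, n = 4 each), a difference of 0.51 that did not pass (adjusted p = 0.108).

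Among 11 genes that act on RNA or nucleotides, 7 were tested, 2 rose and 5 did not pass. Oas1a encodes an oligoadenylate synthetase, which senses double-stranded RNA and activates RNase L. Oas1a (1424775_at) read 63.1, 68.2, 71.5 and 50.4 in deficient mice, against 33.3, 15.2, 5.0 and 7.4 in sufficient mice. It was dim in all 4 sufficient mice, so it entered the test through the deficient mice alone. Oas1a was at least 1.86-fold higher in deficient mice against the dim limit (adjusted p = 0.00823, and 0.0144 without the filter). The call held without each array. Ifit3, whose product works with IFIT1 to trap foreign RNA caps, read 78.5, 74.1, 167.9 and 45.2 in deficient mice, against 21.5, 39.6, 30.5 and 38.9 in sufficient mice. The groups did not overlap, and deficient replicate 3 was the highest. Ifit3 rose by 1.04 ± 0.30 (adjusted p = 0.0499), at the edge of the threshold: it passed without deficient replicate 4 and in none of the other 7 fits without an array (adjusted p up to 0.121).

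Ifit1 and Oas3 were too dim for the filter, being above the dim limit in 3 deficient mice and in no sufficient mouse. Ifit1 read 75.5, 81.8, 154.5 and 27.4 in deficient mice, against 12.8, 2.1, 14.7 and 14.8 in sufficient mice, at least 2.12-fold higher against the dim limit (adjusted p = 0.0208 without the filter). Oas3 read 39.4, 53.4, 83.8 and 31.5 in deficient mice, against 7.2, 10.7, 5.1 and 6.1 in sufficient mice, at least 1.44-fold higher (adjusted p = 0.00673 without the filter). Ifit2, from the same gene cluster as Ifit1 and Ifit3, read 430.3, 461.1, 500.0 and 580.3 in deficient mice, against 478.2, 465.3, 589.1 and 621.6 in sufficient mice. Its groups overlapped, with a difference of -0.12 ± 0.13 (adjusted p = 0.612), and deficient replicate 4 was its highest deficient mouse. Whether Ifit2 differed from Ifit1 or Ifit3 in its change was not tested. The other tested genes of this role did not pass: the exonuclease gene Isg20 differed by 0.58, Oas2 by 0.78, the nucleotide hydrolase gene Samhd1 by 0.29 and the kinase gene Eif2ak2, which halts translation, by 0.12. The synthetase-like genes Oasl1 and Oasl2 were dim on most arrays and not tested.

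Of 6 genes whose products act at membranes or on nucleotide pools, 4 were tested and 2 rose. Rsad2 encodes viperin, which makes a chain-terminating nucleotide. Rsad2 (1436058_at) read 219.1, 210.7, 464.1 and 73.1 in deficient mice, against 42.5, 71.9, 59.6 and 25.4 in sufficient mice. Deficient replicate 4 lay just above the highest sufficient mouse, and the difference was 1.79 ± 0.42 (adjusted p = 0.0227), with 1.33 and 1.02 on the other probe sets. Its call was lost without deficient replicate 1 or 2 or sufficient replicate 1, 3 or 4 (adjusted p up to 0.0652). Rtp4, a chaperone of receptors at the cell surface, read 464.6, 289.8, 448.5 and 207.7 in deficient mice, against 106.8, 87.8, 98.6 and 59.7 in sufficient mice. It rose by 1.78 ± 0.24 (adjusted p = 0.00145) with no overlap, also without each array. Bst2, encoding tetherin, which holds budding virus at the membrane, averaged 565 ± 120 in deficient mice and 400 ± 62.6 in sufficient mice (SD, n = 4 each), a difference of 0.47 that did not pass (adjusted p = 0.0812). Cmpk2, a nucleotide kinase gene beside Rsad2, differed by 0.21 ± 0.30 (adjusted p = 0.725), and the dynamin-like GTPase genes Mx1 and Mx2 were dim on at least 7 of 8 arrays.

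Of 4 nucleic acid sensors 3 were tested, of which Zbp1 rose and 2 did not pass. Zbp1, a sensor of Z-form nucleic acid that can start necroptosis, read 462.6, 454.9, 497.3 and 256.9 in deficient mice, against 236.2, 261.2, 140.7 and 135.1 in sufficient mice. Deficient replicate 4 lay just under sufficient replicate 2, so the groups overlapped. The difference was 1.06 ± 0.24 (adjusted p = 0.0203) and 0.99 on the other probe set. The call was lost without deficient replicate 1, 2 or 3 or sufficient replicate 3 (adjusted p up to 0.0684). Ifih1, encoding the RNA sensor MDA5, read 205.3, 189.9, 298.1 and 110.4 in deficient mice, against 94.8, 150.6, 96.4 and 73.6 in sufficient mice, and its difference of 0.82 ± 0.26 did not pass (adjusted p = 0.0761). Ddx58, encoding RIG-I, differed by 0.38 (adjusted p = 0.143), and Dhx58, encoding their regulator LGP2, was dim on 7 of 8 arrays.

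Of the 6 genes that encode interferon-inducible GTPases, 5 were tested and 2 rose. Gbp2, a guanylate-binding protein gene, read 606.0, 725.8, 857.0 and 487.4 in deficient mice, against 385.5, 445.6, 324.2 and 286.8 in sufficient mice. Every deficient mouse was higher, with a difference of 0.85 ± 0.18 (adjusted p = 0.0127) that also passed without each array, and 0.92 on its other probe set. Ifi47, of the family of immunity-related GTPases, read 1806.9, 1603.6, 1738.8 and 1632.1 in deficient mice, against 1121.6, 1318.5, 1258.4 and 1233.3 in sufficient mice. Ifi47 rose by 0.46 ± 0.08 (adjusted p = 0.00602), and, unlike most of the set, its lowest deficient mouse was replicate 2. Igtp, of the same family, averaged 1717 ± 240 in deficient mice and 1583 ± 296 in sufficient mice (SD, n = 4 each), with a difference of 0.13 that did not pass (adjusted p = 0.644). Irgm1 differed by 0.46 (adjusted p = 0.0644) and Gbp3 by 0.79 (adjusted p = 0.108), and Gbp3 read 257.4 in deficient replicate 3, against 102.3 to 108.2 in the other deficient mice. Iigp1 was too dim for the filter. It read 95.1, 84.8, 238.1 and 32.9 in deficient mice, against 31.7, 28.6, 21.0 and 31.3 in sufficient mice, so deficient replicate 4 was itself dim. The mean of the deficient mice was 2.64-fold above the dim limit, and the difference did not pass (adjusted p = 0.103 without the filter). On its other probe set, 1419042_at, the groups overlapped and that fold was 1.09.

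Parp9, which forms a complex with the ubiquitin ligase DTX3L, was called higher, and Dtx3l and Parp14 did not pass. Parp9 read 849.0, 944.0, 1128.3 and 568.1 in deficient mice, against 507.5, 632.9, 406.6 and 427.5 in sufficient mice. Deficient replicate 4 lay below sufficient replicate 2, and the difference was 0.78 ± 0.20 (adjusted p = 0.0314). Without deficient replicates 1, 2 or 3 or sufficient replicates 1, 3 or 4 it did not pass (adjusted p up to 0.1003). Dtx3l averaged 1083 ± 180 in deficient mice and 823 ± 56.7 in sufficient mice (SD, n = 4 each), a difference of 0.38 (adjusted p = 0.0723). The related gene Parp14 differed by 0.39 (adjusted p = 0.259). Both passed without deficient replicate 4 and with array weights. Whether Parp9 differed from Dtx3l or Parp14 in its change was not tested.

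The other 3 tested genes, of mixed function, rose. Ifi35, which encodes a partner of the adaptor NMI, read 1433.3, 1360.0, 1562.9 and 1332.4 in deficient mice, against 897.6, 899.4, 957.7 and 884.3 in sufficient mice. Its spread was small in both groups and the difference was 0.63 ± 0.08 (adjusted p = 0.00108), but this is the value of 1445897_s_at, of a probe set class that can match several transcripts, and the others differed by 0.27 and 0.17 without passing. Ifi27, which encodes a small membrane protein of mitochondria, read 1165.7, 991.7, 1124.2 and 811.8 in deficient mice, against 680.0, 638.3, 715.2 and 652.3 in sufficient mice. All deficient mice were higher, and Ifi27 rose by 0.58 ± 0.12 (adjusted p = 0.00989), with 0.73 on its other probe set. Xaf1, whose product binds the inhibitor of apoptosis XIAP, read 210.6, 251.0, 272.8 and 102.7 in deficient mice, against 105.8, 117.7, 96.4 and 68.4 in sufficient mice. Deficient replicate 4 lay inside the sufficient range, and the difference of 0.94 ± 0.26 (adjusted p = 0.0449) did not pass without deficient replicates 1, 2 or 3 or sufficient replicates 1, 3 or 4 (adjusted p up to 0.129). The other Xaf1 probe set, too dim for the filter, differed by 0.19.

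**Figure D3:**
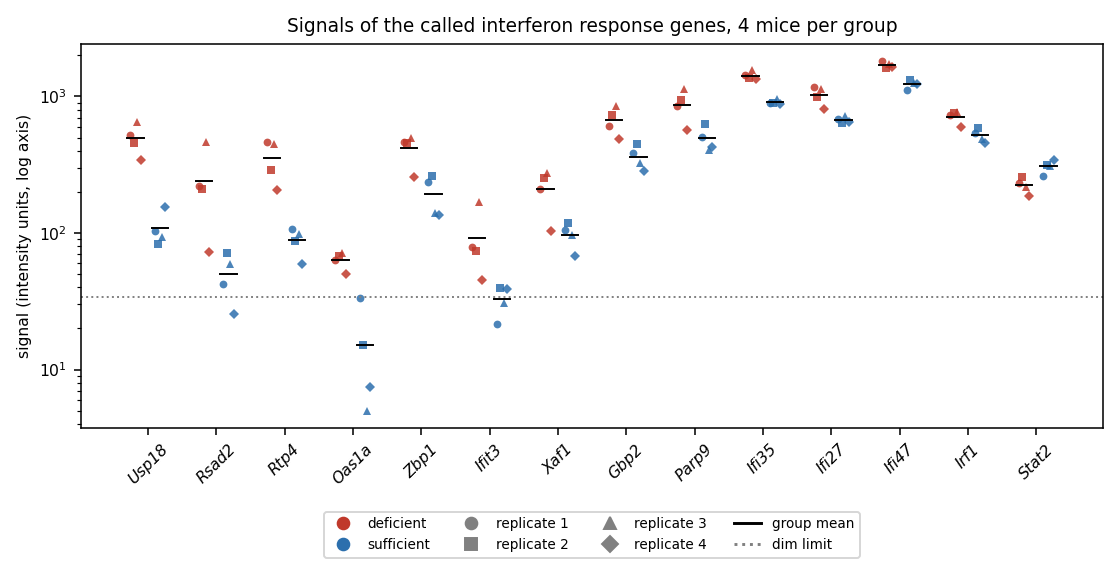
Signal of the 14 called genes on a log axis, with 4 deficient mice (red) left of 4 sufficient mice (blue), a marker shape for each replicate number, black bars at the group means and a dotted line at the dim limit of 33.8. Deficient replicate 3 (triangle) is the highest of the 8 mice for 10 of the 13 genes called higher, and deficient replicate 4 (diamond) is the lowest deficient mouse for 12 of them. Being called higher already favours a deficient mouse as the highest of the 8.

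**Figure D4:**
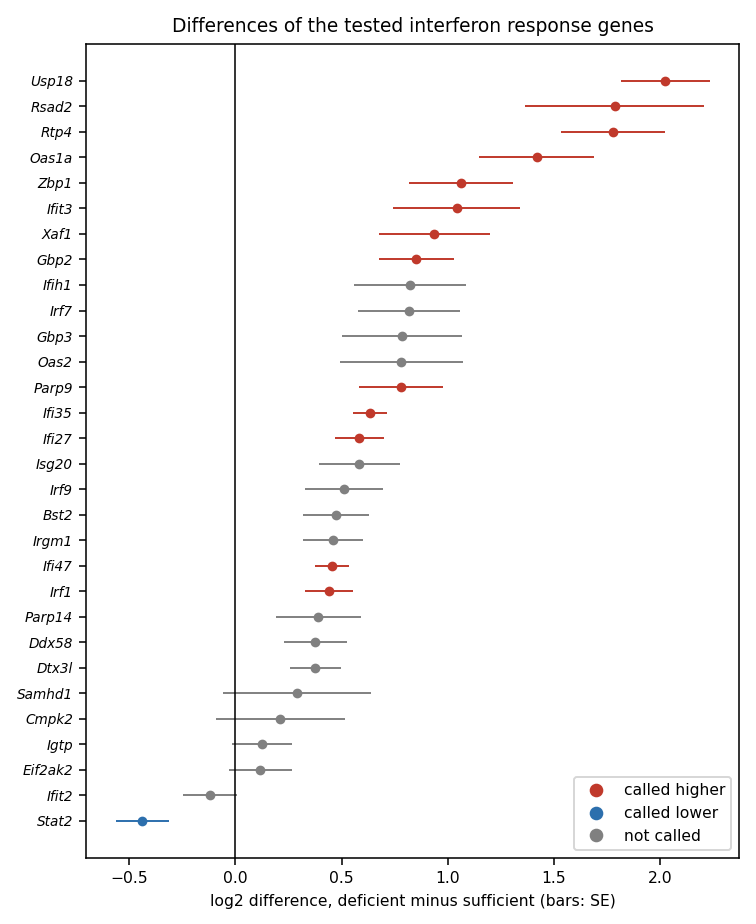
Log2 difference (deficient minus sufficient) of the 30 tested genes with its SE, coloured by call. Differences ran from -0.44 for Stat2 to 2.02 for Usp18, and 28 of the 30 were positive.

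Upstream of these genes, the interferon genes themselves were dim. Of 18 listed ligand genes, the 9 with a probe set, Ifnb1 and Ifng among them, were dim on all 8 arrays, with a highest signal of 31.9. Of 9 tested receptor and JAK-STAT genes 1 rose, 1 fell and 7 did not pass, with a median of 0.03. Over all tested genes 5.89% were called higher and 4.08% lower. Il10rb, a receptor chain shared by interleukin-10 and interferon lambda, averaged 527 ± 67.3 in deficient mice and 300 ± 33.1 in sufficient mice (SD, n = 4 each; log2 0.78 ± 0.12, adjusted p = 0.00256). Ifngr1, the binding chain of the interferon gamma receptor, averaged 1126 ± 83.7 in deficient mice and 1698 ± 227 in sufficient mice (log2 -0.58 ± 0.11, adjusted p = 0.00651). The type I receptor genes Ifnar1 and Ifnar2 differed by 0.03 (adjusted p = 0.89) and 0.36 (adjusted p = 0.139). Of 5 other IRF genes 0 passed in limma and 1 had an unadjusted p under 0.05, with a median of -0.06, and Irf3, brightest of them, differed by -0.11. Of 10 sensor and adaptor genes 0 passed in limma and 2 had an unadjusted p under 0.05, with a median of 0.24, and the kinase gene Tbk1 differed by -0.02.

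Of 11 tested brakes on the pathway 1 rose, beside 5.89% of all tested genes, with a median of 0.10. Socs3, which blocks JAK kinases at several cytokine receptors, averaged 2649 ± 367 in deficient mice and 797 ± 443 in sufficient mice (SD, n = 4 each; log2 1.89 ± 0.33, adjusted p = 0.00568). Among 35 tested interferon-induced genes outside the set of 40, 6 rose, 1 fell and 28 did not pass, with a median of 0.28 and 29 positive differences. Over all tested genes 5.89% were called higher and 4.08% lower, the median was 0.02 and 53.4% of differences were positive. Lgals3bp, a secreted galectin ligand, averaged 613 ± 193 in deficient mice and 268 ± 41.4 in sufficient mice, a log2 difference of 1.10 (adjusted p = 0.0106). Ifitm3, which blocks fusion of viruses in endosomes, rose by 0.80 (adjusted p = 0.0148; 0.0506 without deficient replicate 1), while the galectin gene Lgals9 fell by 0.88 (adjusted p = 0.0121). Among deficient mice, 20 of these 35 genes were highest in replicate 3, beside 25.3% of all tested genes. Deficient replicate 4 was lowest for 19 of them, beside 30.6% of all tested genes.

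Of 11 interferon-inducible antigen presentation genes 3 rose, 1 fell and 7 did not pass, with a median of 0.13. The shares over all tested genes were 5.89% called higher and 4.08% called lower. Nlrc5, the transactivator of MHC class I genes, averaged 158 ± 42.5 in deficient mice and 47.5 ± 13.7 in sufficient mice (SD, n = 4 each; log2 1.45 ± 0.21, adjusted p = 0.00215). H2-K1, a class I heavy chain gene, rose by 0.66 (adjusted p = 0.00248), and B2m, the light chain gene, by 0.59 (adjusted p = 0.000912). Tap2, a chain of the peptide transporter, fell by 0.70 (adjusted p = 0.0107), while its partner Tap1 differed by 0.13 without passing.

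Markers of other cells were examined in the same arrays, where 5.89% of all tested genes were called higher and 4.08% lower. Of 8 tested plasmacytoid dendritic cell markers, Tcf4 rose by 0.54, and the defining marker Siglech was dim on all arrays; the summed signal of the 10 markers was 13247.5 to 15127.1 in deficient mice, against 11984.7 to 15593.5 in sufficient mice, most of it from Ccr9 and Ly6d, which thymocytes express. Among 9 tested markers of macrophages and dendritic cells, Ctss, a cathepsin gene, was called with a log2 difference of 0.999 (adjusted p = 0.0459, lost without deficient replicate 1, 2 or 3 or sufficient replicate 1 or 3, up to 0.129), and the summed signal of the 13 markers was 1529.4 to 2024.2 in deficient mice, against 919.3 to 2320.4 in sufficient mice. Of 3 tested NK, NKT and gamma-delta markers, Gzma rose by 0.75 (adjusted p = 0.00183), and the 10 markers summed to 3214.8 to 4422.5 in deficient mice, against 2084.4 to 2658.9 in sufficient mice, with Ncr1 and Zbtb16 dim on all arrays. Gzma made up most of this sum, with 2961.8 to 4065.8 in deficient mice, against 1979.5 to 2400.3 in sufficient mice. Of 9 tested double-positive stage markers 4 fell, by 0.98 for Endou, 0.77 for Arpp21, 0.41 for Rag2 and 0.26 for Dntt, and the 9 markers summed to 53734.1 to 59407.7 in deficient mice, against 63313 to 67187.5 in sufficient mice. The Dntt call was lost without each deficient replicate 1, 2 and 3 and each sufficient replicate 1, 3 and 4 (adjusted p up to 0.126). Of 2 tested B-cell, 1 granulocyte, 3 stromal and 1 red-cell marker 0 passed in limma, with 1, 1, 2 and 0 at an unadjusted p under 0.05. B-cell markers summed to 7670.1 to 8608.2 in deficient mice, against 7145.1 to 7377.2 in sufficient mice. Most of that sum was Ighm, with 7105.8 to 8077.6 in deficient mice, against 6579.2 to 6880.5 in sufficient mice, while Cd79a and Ebf1 were dim on all arrays. Granulocyte markers summed to 78.1 to 189.4 in deficient mice, against 58.9 to 131.2 in sufficient mice. Stromal markers summed to 552.4 to 821.7 in deficient mice, against 801.3 to 843.3 in sufficient mice, and red-cell markers to 126.9 to 153.5 in deficient mice, against 126.1 to 176.8 in sufficient mice. The part of these cells in the interferon result was not tested.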

How the data were processed

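RNA of double-positive thymocytes was measured on 1-colour Affymetrix arrays, 4 mice labelled deficient and 4 labelled sufficient. The deposited values are linear intensities. GCOS is named in the submitters' processing notes, without a version or settings. Scaling by the authors to a common trimmed mean hides changes in total RNA. Scan batches were not analysed here, and the number of arrays limits the precision. Each array is 1 mouse per the labels, so p-values measure the spread between these mice.

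Intensities were converted to log2(signal + 16), a scale that understates changes of dim genes. The table held 45101 probe sets, 64 of them controls, which were dropped. By the platform annotation 34945 had 1 symbol, 932 several and 9160 none, and for 34741 of the 1-symbol probe sets the gene identifier was found in the RefSeq table of GRCm38.p6, used for current symbols. Each gene was represented by its brightest 1-symbol probe set (mean log2 signal). Tested probe sets exceeded the dim limit of 33.8, the table's median, on at least 4 of 8 arrays. Where a group was dim on all arrays, the fold is a bound: the mean log2 signal of the bright group against 33.8. Groups were compared with limma 3.58.1 in R 4.3.3 (lmFit, eBayes with a variance trend, two-sided, Benjamini-Hochberg over 9941 genes), deficient minus sufficient. Adjusted p-values are from this model unless the sentence names another fit, which is limma too, adjusted over the genes or probe sets of that fit. Tested on simulated data for this comparison over 9941 genes, it recovered 26%, 54%, 96% and 98% of 50 genes changed 1.25-, 1.5-, 2- and 4-fold, with 2 false calls among 139. The changed genes were drawn from brighter genes only, and the noise was independent between genes and mice. These shares thus do not cover dimmer genes of the set, such as Oas2, Irf7 and Gbp3.

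The 40 genes and all lists were chosen with earlier results of these data known. Named are all called genes of the set and, in each role, genes that were not called, up to 3 called genes of each pathway list and called or brightest marker genes. B2m, Ifnar1, Ifnar2 and Tap1 were named after their values were seen. Alternatives changed the normalization, pseudocount, filter, probe set choice, variance model and array weights, added a replicate block or the Xist class (cut at 1000), or left out each array. Python 3.11.15, pandas 2.3.3 and matplotlib 3.10.9 made tables and plots.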

Additional observations from a re-analysis of the deposited data

Results flagged for a closer look

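In 10 of 130 groups of 4 arrays examined, 1 array stood far from the rest; about 1 in 20 would do so by chance. In the deficient group that array was replicate 3 for Gbp3 (257.4, others 102.3 to 108.2), Dhx58 (86.5, others 18.6 to 23.5), Oasl1 (57.4, others 23.5 to 27.5), Mx2 (17.4, others 3.1 to 4.9), Klf2 (234.8, others 139.1 to 153.1) and Tcf4 (648.1, others 503.2 to 525.7). Mx2 was dim on all arrays. In deficient replicate 4 the 5-prime probe set of the 18S rRNA control read 7142.7 (others 772 to 1459.4). In the sufficient group the outlying signals were 2.1 for Ifit1 (others 12.8 to 14.8) and 29.2 for Dhx58 (others 3.8 to 6.5), all dim, and 4358.5 for Xist in replicate 1 (others 23.4 to 36.7).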

How the results depend on the processing

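The 13 rises among interferon genes stayed within 1.5 times of that count under quantile normalization, pseudocounts of 1 and 64, each change of filter or probe set choice, no variance trend, robust variance and the replicate block. The count was 22 with array weights, where 1745 genes changed in place of 992, and 0 with the Xist class as a covariate, where 26 changed. Leaving out 1 array gave 7 to 21 rises, 508 to 1217 changed genes and a median difference of the tested set between 0.48 and 0.69. Without the dim filter the 13 rises became 5 with no variance trend, 0 with the Xist class and 6 to 21 without 1 array. The 1 fall, Stat2, became 0 without the dim filter, with no variance trend, array weights, the replicate block or the Xist class, and 0 to 1 without 1 array. With the replicate block, 15 rises were called, Bst2 and Ifih1 being added. The labels do not say whether same-numbered mice were paired. Deviations of same-numbered arrays correlated at 0.004, 0.17, -0.27 and 0.36, which cannot settle it. Of the single genes not called, signs turned with the Xist class for Ifit2 (0.034), Igtp (-0.17), Eif2ak2 (-0.051), Cmpk2 (-0.18), Tbk1 (0.16) and Hba-a2 (0.086), and for Tbk1 without cross-hybridising probe sets (0.0042). Without 1 array, signs turned within ranges of -0.00056 to 0.22 for Igtp, -0.056 to 0.40 for Cmpk2 and -0.080 to 0.035 for Tbk1. The cause of these changes was not tested. Dim signals limit Ifit1, Oas3, Iigp1, Oasl1, Oasl2, Mx1, Mx2 and Dhx58, which did not pass the dim filter. Ifit1 was tested and called with the filter on the mean over all arrays.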

Other observations

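One probe set outside the genes analysed, 1431591_s_at, is assigned by the annotation jointly to 2 genes, Isg15 and the predicted gene Gm9706, so its signal belongs to neither alone. It read 225.9, 231.5, 339.8 and 122.6 in deficient mice, against 95.8, 86.5, 81.3 and 69.0 in sufficient mice. The groups did not overlap, and the order of the deficient mice had replicate 3 highest and replicate 4 lowest. This probe set was chosen after its values were seen, and the difference was not tested.

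Samhd1 had 5 probe sets that did not move alike. The brightest, 1420273_x_at, read 28.8, 48.6, 74.9 and 90.7 in deficient mice, against 22.4, 39.9, 35.8 and 97.2 in sufficient mice, with replicate 4 the highest in each group. The next brightest, 1418131_at, read 52.2, 51.1, 58.1 and 48.5 in deficient mice, against 31.7, 24.9, 16.8 and 40.8 in sufficient mice, with no overlap, a log2 difference of 0.65 and an adjusted p over probe sets of 0.0786 in limma.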
